A study of Homo sapiens with 4 samples.

Results

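The hypoxia-inducible factor (HIF) pathway was followed through 10 genes chosen by name: HIF1A, EPAS1, EGLN1, EGLN3, BNIP3, VEGFA, CA9, NDRG1, ADM and ANKRD37. These genes and the lists below were chosen with earlier results of these data known. All 10 were found among 25411 genes counted by RNA sequencing, and all 10 passed the filter on low counts that left 13663 genes to be tested. The cells were BEAS-2B, an immortalised line of human bronchial epithelial cells grown in Dulbecco's Modified Eagle's Medium. There were 2 libraries from cells given 5 µM cadmium chloride for 72 h and 2 libraries from control cells grown for 72 h, with no other treatment named in the labels. The labels put the cadmium libraries under experiment 2 and the controls under experiment 1, so treatment cannot be told apart from experiment. The labels do not state whether the 2 libraries of a group are from separate cultures, so the p-values reflect only library-to-library spread, which may be technical.

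In this pathway HIF1A and EPAS1 encode the oxygen-regulated HIF-1α and HIF-2α subunits, which pair with ARNT to switch on hypoxia targets. The prolyl hydroxylases EGLN1 and EGLN3 use oxygen to mark these subunits for recognition by the VHL ubiquitin ligase, and EGLN3 is itself a HIF target. HIF activity is set largely through the stability of the α subunits, which transcript counts do not measure. Targets include genes for mitophagy (BNIP3), angiogenesis (VEGFA), pH control (CA9), a vasodilator peptide (ADM), the stress-responsive NDRG1 and the ankyrin repeat protein gene ANKRD37.

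The 4 libraries held 8609243 to 29937242 reads in genes, a 3.48-fold range, with control replicate 2 the shallowest. No library was a copy of another: chi-square divided by the number of genes was 7.35 for the pair of cadmium libraries and 11.3 for the pair of controls. MT2A, a metallothionein gene that responds to cadmium, had 3596 and 3315 CPM (reads scaled to library size) in cadmium libraries, against 277 and 378 CPM in controls, and rose by 3.40 on the log2 scale (adjusted p = 5.67e-04, edgeR). The other 5 exposure genes rose too, led by MT1X (5.47), MT1E (5.02) and the heat shock gene HSPA6 (4.63), although MT1X did not pass without control replicate 1 or control replicate 2 (adjusted p = 0.184 and 0.167). In every fit without 1 library, 1 group holds a single library, so the spread comes from the other group and from moderation over all genes, and the lone library is assumed to vary in the same way. The epithelial keratin genes KRT8 and KRT18 were present at 540 to 649 CPM and 204 to 285 CPM over the 4 libraries, whereas KRT5 had 0 or 1 read in each. KRT19 had 7 and 3 reads in cadmium libraries, against 1 and 0 reads in controls. Of the other epithelial markers tested, KRT7 had 246 and 288 CPM in cadmium libraries against 523 and 558 CPM in controls, with a log2 change of -1.02 (adjusted p = 0.00234). EPCAM rose by 1.36 (adjusted p = 0.0131) at a low level, with 5.94 and 5.06 CPM in cadmium libraries against 2.04 and 2.38 CPM in controls. CDH1 was nearly absent, with 0.915 and 0.949 CPM in cadmium libraries against 0.423 and 0.119 CPM in controls. Its log2 change of 1.45 did not pass (adjusted p = 0.0944). CD3E, LYZ, PECAM1 and DCN, markers of leukocytes, endothelial cells and fibroblasts, had 0 reads in every library, but other markers on the same lists were present. The macrophage marker CD68 had 83.4 and 80.7 CPM in cadmium libraries against 56.0 and 52.6 CPM in controls and rose by 0.59 (adjusted p = 0.00857), and the endothelial marker TIE1 rose by 1.68 (adjusted p = 0.0160). The fibroblast markers COL1A1 and THY1 stood at 3068 to 4379 CPM and 536 to 588 CPM over the 4 libraries. The summed level of the tested fibroblast markers, 3 of 6, was 3852 and 3612 CPM in cadmium libraries and 4929 and 4075 CPM in controls. The same sum was 94.7 and 88.1 CPM in cadmium libraries against 62.8 and 64.0 CPM in controls for leukocyte markers, of which 2 of 5 were tested, and 3.30 and 2.66 CPM against 1.04 and 0.713 CPM for the 1 of 5 endothelial markers tested. For epithelial markers, 5 of 7 tested, it was 1086 and 1196 CPM in cadmium libraries against 1270 and 1476 CPM in controls. Nuclear-retained RNAs, also read as a sign of RNA quality, had 3 of 4 tested genes, and their summed level was 1267 and 1303 CPM in cadmium libraries, against 720 and 895 CPM in controls. Of these, MALAT1 rose by 0.87 and NEAT1 by 0.59 on the log2 scale, NEAT1 not without cadmium replicate 1 or 2 (adjusted p = 0.057 and 0.0581). The part of the marker genes and of these RNAs in the results that follow was not tested.

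Promoter letters are shown for the 2 genes that passed the test, EGLN3 and BNIP3, for CA9 and ANKRD37, whose 2 controls lay far apart, and for EGLN1, whose level was nearly equal in all libraries. Each line gives the 250 bases before the RefSeq gene start, 5′ to 3′ along the gene, from GRCh38.p14. Capitals mark ACGTG or GCGTG on either strand, the letters of the core of a hypoxia response element.
EGLN1 promoter (chr1:231422288-231422537, minus strand): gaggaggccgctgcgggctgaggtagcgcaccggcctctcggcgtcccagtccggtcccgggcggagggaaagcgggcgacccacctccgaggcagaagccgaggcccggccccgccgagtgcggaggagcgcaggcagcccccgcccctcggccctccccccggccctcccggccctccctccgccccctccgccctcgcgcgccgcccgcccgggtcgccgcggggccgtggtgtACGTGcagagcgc
EGLN3 promoter (chr14:33951075-33951324, minus strand): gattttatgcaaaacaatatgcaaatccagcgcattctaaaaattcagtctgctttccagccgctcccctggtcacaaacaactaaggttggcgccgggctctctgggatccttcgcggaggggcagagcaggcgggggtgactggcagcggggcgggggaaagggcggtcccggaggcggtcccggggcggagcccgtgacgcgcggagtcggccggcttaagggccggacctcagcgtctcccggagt
BNIP3 promoter (chr10:131981924-131982173, minus strand): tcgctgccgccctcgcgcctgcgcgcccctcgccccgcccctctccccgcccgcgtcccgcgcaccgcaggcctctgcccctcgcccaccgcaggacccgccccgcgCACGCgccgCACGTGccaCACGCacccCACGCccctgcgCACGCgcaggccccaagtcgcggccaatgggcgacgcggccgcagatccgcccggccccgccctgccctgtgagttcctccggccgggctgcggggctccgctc
CA9 promoter (chr9:35673678-35673927, plus strand): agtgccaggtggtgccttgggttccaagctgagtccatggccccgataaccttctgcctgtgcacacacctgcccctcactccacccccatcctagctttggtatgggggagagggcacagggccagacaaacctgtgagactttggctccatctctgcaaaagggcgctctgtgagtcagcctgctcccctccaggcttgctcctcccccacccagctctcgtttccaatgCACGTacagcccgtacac
ANKRD37 promoter (chr4:185396591-185396840, plus strand): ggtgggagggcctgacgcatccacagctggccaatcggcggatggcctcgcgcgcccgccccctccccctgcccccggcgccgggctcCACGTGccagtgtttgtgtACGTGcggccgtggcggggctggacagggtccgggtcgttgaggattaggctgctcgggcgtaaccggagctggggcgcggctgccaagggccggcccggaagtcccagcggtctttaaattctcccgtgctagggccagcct
Promoters of this table were matched for 8 of the 10 genes, with 9 windows in all. ACGTG was found on at least 1 strand in 4 of the 9 windows, those of EGLN1, BNIP3, CA9 and ANKRD37, against 18.5% of 35116 windows of the same length over all genes. GCGTG was found in 4 of the 9, against 32.2% of all windows. Over windows of tested genes alone the shares were 22.4% for ACGTG and 43.6% for GCGTG. The nearest ACGTG began 18 bases before the CA9 start and 13 bases before the EGLN1 start. The palindrome CACGTG in the BNIP3 and ANKRD37 windows was counted once per strand. These matches describe letters only, and EGLN3, which rose, had neither motif in this window.

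Of the 10 genes, EGLN3 and BNIP3 were higher in cadmium libraries beyond the test's threshold (Benjamini-Hochberg adjusted p under 0.05 over all tested genes, edgeR quasi-likelihood test), 0 were lower and 8 did not pass. Over all tested genes 8.85% were called higher and 7.66% lower, so with 10 genes 2 calls stand near the background. In bulk RNA, fewer cells of a type and less RNA per cell cannot be told apart. The higher and lower calls numbered 1209 and 1046 with TMM scaling, and 1445 and 682 when scaled to library totals only. HIF1A and EGLN1 stayed at almost the same level in all 4 libraries, while NDRG1 and CA9 had the largest fitted differences of the 10 and did not pass. The authors' deposited table calls 3 of the 10 higher (EGLN3, BNIP3 and NDRG1) and 0 lower, where it calls 3.87% and 3.93% of all its genes. Those shares are over 25411 genes, with genes below the filter on low counts included, so they are not directly comparable with the edgeR shares over 13663 genes. At an unadjusted p under 0.05 the test also reached EPAS1 and ADM, both on the lower side, and NDRG1, while DESeq2 and limma-voom called 0 of the 10 lower. In both cadmium libraries 5 of the 10 genes lay above both controls and 2 below both, against 31.3% and 30.8% of all tested genes.

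**Figure D1:**
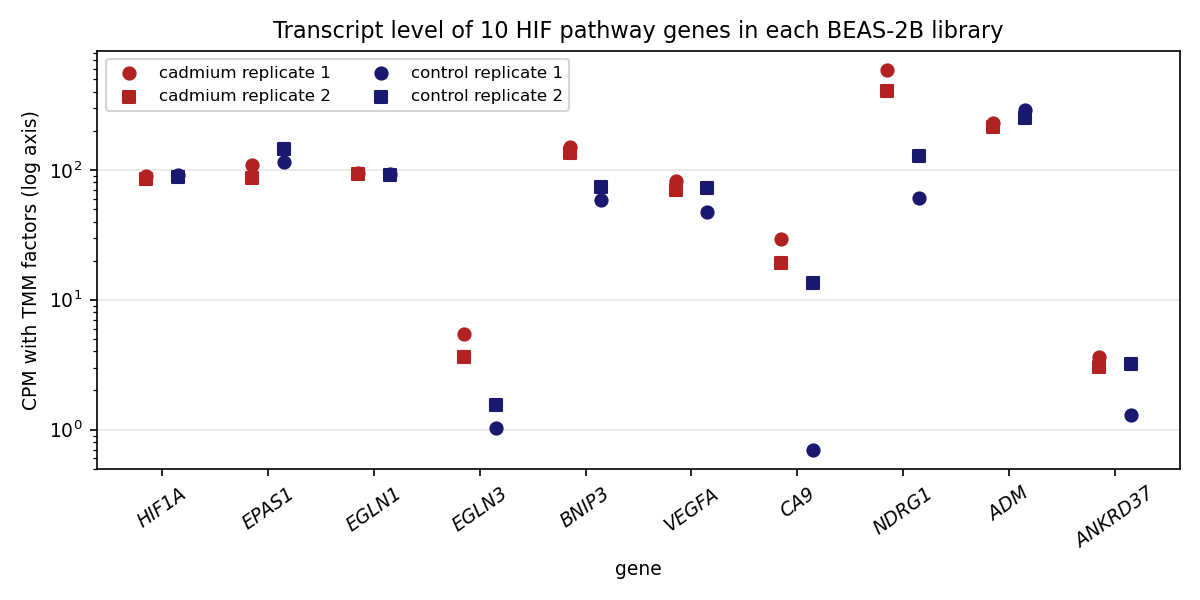
Level of each gene in CPM with TMM factors, on a log axis, in the 2 cadmium libraries (red) and the 2 control libraries (dark blue); circles are replicate 1 and squares replicate 2. HIF1A and EGLN1 lie on 1 level in all libraries, BNIP3 and EGLN3 are higher in both cadmium libraries, and the 2 CA9 controls stand at 0.691 and 13.4 CPM.

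Among the regulators, HIF1A (chromosome 14, 62164340 to 62214977 in hg19) had 89.1 and 84.9 CPM in cadmium libraries, against 92.1 and 88.0 CPM in controls. The groups overlapped, and all 4 libraries lay close together. The log2 fold change was -0.051 (SE 0.088, adjusted p = 0.727), with a 95% interval from -0.25 to 0.15, and it was 0.0072 when libraries were scaled to their totals only. HIF1A-AS2, an antisense gene on the opposite strand, shares 1221 bases with the HIF1A span and had 23 and 8 reads in cadmium libraries, against 8 and 1 in controls. The use of strand in counting is not given in the sources used here, so reads of both genes cannot be told apart, but HIF1A itself held 741 to 2727 reads. HIF1A-AS1, whose counted span does not overlap that of HIF1A, had 8.17 and 8.16 CPM in cadmium libraries and 10.8 and 11.3 CPM in controls (log2 fold change -0.43, adjusted p = 0.109).

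EPAS1 (chromosome 2, 46524541 to 46613842) had 109 and 86.9 CPM in cadmium libraries, against 115 and 145 CPM in controls. Both cadmium libraries were lower than both controls, but cadmium replicate 1 lay near control replicate 1. The log2 fold change was -0.39 (SE 0.15, adjusted p = 0.105) and did not pass. Without control replicate 1 it was -0.56 and passed (adjusted p = 0.0192), whereas leaving out control replicate 2 gave -0.23 (adjusted p = 0.204). Per length, the RPKM of HIF1A over that of EPAS1 was 1.04 and 1.25 in cadmium libraries, against 1.02 and 0.774 in controls, so the groups did not overlap and control replicate 2 was the only library with EPAS1 above HIF1A.

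The hydroxylase genes differed in level and in response. EGLN1 (chromosome 1, 231499497 to 231560790) had 94.5 and 93.0 CPM in cadmium libraries, against 92.6 and 90.6 CPM in controls. The cadmium libraries lay above both controls by a very small margin, and the log2 fold change was 0.032 (SE 0.085, adjusted p = 0.829), with a 95% interval from -0.16 to 0.23. EGLN3 (chromosome 14, 34393421 to 34420284) had only 167 and 57 reads in cadmium libraries and 27 and 13 reads in controls.

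EGLN3 stood at 5.45 and 3.61 CPM in cadmium libraries, against 1.04 and 1.54 CPM in controls, with no overlap. Its rise was 1.93 in log2 units (SE 0.35, adjusted p = 0.0117). Without cadmium replicate 1 the change was 1.56 and no longer passed (adjusted p = 0.0805). The authors' deposited table gives EGLN3 an adjusted p of 0.00376. In RPKM, EGLN1 exceeded EGLN3 6.64-fold and 9.88-fold in the cadmium libraries, against 34.2-fold and 22.5-fold in the controls, so the 2 hydroxylase transcripts were less far apart in both cadmium libraries.

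The other regulators of the pathway numbered 16, of which 15 were tested, HIF3A having 0 reads in every library. By edgeR 0 of them rose, also at an unadjusted p under 0.05 and by DESeq2, and 1 fell, CREBBP. At an unadjusted p under 0.05, 5 of the 15 were lower, CREBBP among them. CREBBP, a histone acetyltransferase that serves as a HIF coactivator, had 139 and 146 CPM in cadmium libraries, against 196 and 183 CPM in controls. The log2 fold change of CREBBP was -0.41 (SE 0.084, adjusted p = 0.0166), and it did not pass on log2 RPKM with either pseudocount (adjusted p = 0.061 for both) or without either cadmium library (adjusted p = 0.134 without replicate 1 and 0.0586 without replicate 2). For comparison, 8.85% of all tested genes were called higher and 7.66% lower. The counts of these regulators changed when single libraries were left out. The median log2 fold change of the 15 genes was -0.17, beside 0.0019 over all tested genes, and 10 of the 15 lay below both controls in both cadmium libraries, against 30.8% of all tested genes.

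Among the targets, BNIP3 (chromosome 10, 133781204 to 133795435), whose product acts in mitophagy and cell death, had 150 and 134 CPM in cadmium libraries, against 58.3 and 74.4 CPM in controls. Both cadmium libraries lay well above both controls. BNIP3 rose 2.17-fold (log2 fold change 1.12, SE 0.13, adjusted p = 0.00349). The gene passed in each fit without 1 of the 4 libraries, with changes from 0.94 to 1.28. The authors' deposited table lists BNIP3 at a mean of 82.6 RPKM in cadmium and 37.7 RPKM in control, with an adjusted p of 6.22e-12. Its paralog BNIP3L, also a mitophagy receptor, rose less, by 0.60 (SE 0.13, adjusted p = 0.0216), with 136 and 122 CPM in cadmium libraries and 74.3 and 97.3 CPM in controls. Without cadmium replicate 1 BNIP3L did not pass (adjusted p = 0.0899), nor on log2(RPKM + 0.1) (adjusted p = 0.0503).

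NDRG1 (chromosome 8, 134249414 to 134309547), a gene induced by hypoxia and other stresses, had 18053 and 6417 reads in cadmium libraries, against 1584 and 1069 reads in controls. In CPM these were 590 and 406 in cadmium libraries and 60.8 and 127 in controls. The groups did not overlap, and the lowest cadmium library lay far above the highest control. The fitted log2 fold change was 2.44 (SE 0.52), a 5.41-fold difference, and the adjusted p of 0.0885 from edgeR missed the threshold. NDRG1 passed by DESeq2 (adjusted p = 6.68e-04) and in the authors' deposited table (adjusted p = 0.00123). The 2 fits on log2 RPKM also passed it (adjusted p = 0.0365 and 0.0448). It did not pass by limma-voom (adjusted p = 0.0649), nor by edgeR with the replicate block (0.367), thinned counts (0.139), no filter (0.159) or the stricter filter (0.0787). The log2 fold change was 3.03 without control replicate 2 and 1.97 without control replicate 1. Leaving out cadmium replicate 1 gave 2.14, and leaving out cadmium replicate 2 gave 2.67.

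CA9 (chromosome 9, 35673915 to 35681154) encodes carbonic anhydrase 9, a cell surface enzyme that acts in pH control. It had 892 and 304 reads in cadmium libraries, against 18 and 113 reads in controls, or 29.1 and 19.2 CPM against 0.691 and 13.4 CPM. The groups did not overlap, but the controls differed from each other far more than the cadmium libraries did. Control replicate 2 exceeded control replicate 1 19.4-fold, with a 95% counting interval from 11.7 to 33.9, which covers counting error only. Of all tested genes 99.5% had a smaller difference between the controls. The fitted log2 fold change of 2.17 (SE 1.57, adjusted p = 0.459) had an interval from -3.58 to 7.91.

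For CA9 the choice of control decided the value. Without control replicate 2 the log2 fold change was 5.13 (adjusted p = 6.70e-05), whereas leaving out control replicate 1 gave 0.87 (adjusted p = 0.0889). Neither p takes account of the 19.4-fold difference between the controls, since each fit holds only 1 of them. The authors' deposited table lists CA9 at a mean of 13.9 RPKM in cadmium and 3.95 RPKM in control, a log2 ratio of 1.81, beside the table's own log ratio of 0.13 and an adjusted p of 0.568. CA12, another cell surface carbonic anhydrase, rose by 2.49 (SE 0.52, adjusted p = 0.0176) from few reads, 113 and 33 in cadmium libraries against 9 and 8 in controls. Without cadmium replicate 1 CA12 did not pass (1.93, adjusted p = 0.120), nor without control replicate 1 (1.64, adjusted p = 0.0682), nor on log2 RPKM with a pseudocount of 0.5 or 0.1 (adjusted p = 0.0581 and 0.0602).

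VEGFA (chromosome 6, 43739722 to 43754223), the gene for the main angiogenic growth factor, had 82.5 and 69.5 CPM in cadmium libraries, against 47.6 and 72.2 CPM in controls. Control replicate 2 lay between the cadmium libraries, so the groups overlapped. The log2 fold change was 0.37 (SE 0.20, adjusted p = 0.257), with an interval from -0.12 to 0.86. Without control replicate 2 it was 0.67 and passed (adjusted p = 0.00115), whereas leaving out control replicate 1 gave 0.077 (adjusted p = 0.726).

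ADM (chromosome 11, 10326642 to 10328923), which encodes adrenomedullin, a vasodilator peptide, was the most abundant of the 10 genes per length in controls. It had 228 and 214 CPM in cadmium libraries, against 292 and 250 CPM in controls and was the only one of the 6 targets with a fitted change below 0. The groups did not overlap, and the log2 fold change was -0.30 (SE 0.095, adjusted p = 0.0673), which did not pass. Without control replicate 2 it was -0.41 and passed (adjusted p = 0.00404), whereas leaving out control replicate 1 gave -0.18 (adjusted p = 0.220). With no filter on low counts it passed as well (adjusted p = 0.0216).

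ANKRD37 (chromosome 4, 186317840 to 186321390) had 110 and 48 reads in cadmium libraries, against 34 and 27 reads in controls. Scaled to depth these were 3.59 and 3.04 CPM in cadmium libraries and 1.31 and 3.21 CPM in controls, so control replicate 2 lay within the cadmium libraries. The log2 fold change of 0.75 (SE 0.41, adjusted p = 0.237) was 1.35 (adjusted p = 0.0101) when control replicate 2 was left out and 0.061 (adjusted p = 0.925) when control replicate 1 was. The span of ANKRD37 shares 697 bases with UFSP2 on the opposite strand, which had 339 and 176 reads in cadmium libraries and 247 and 65 reads in controls. Without strand, reads in the shared bases cannot be assigned to 1 of the genes.

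**Figure D2:**
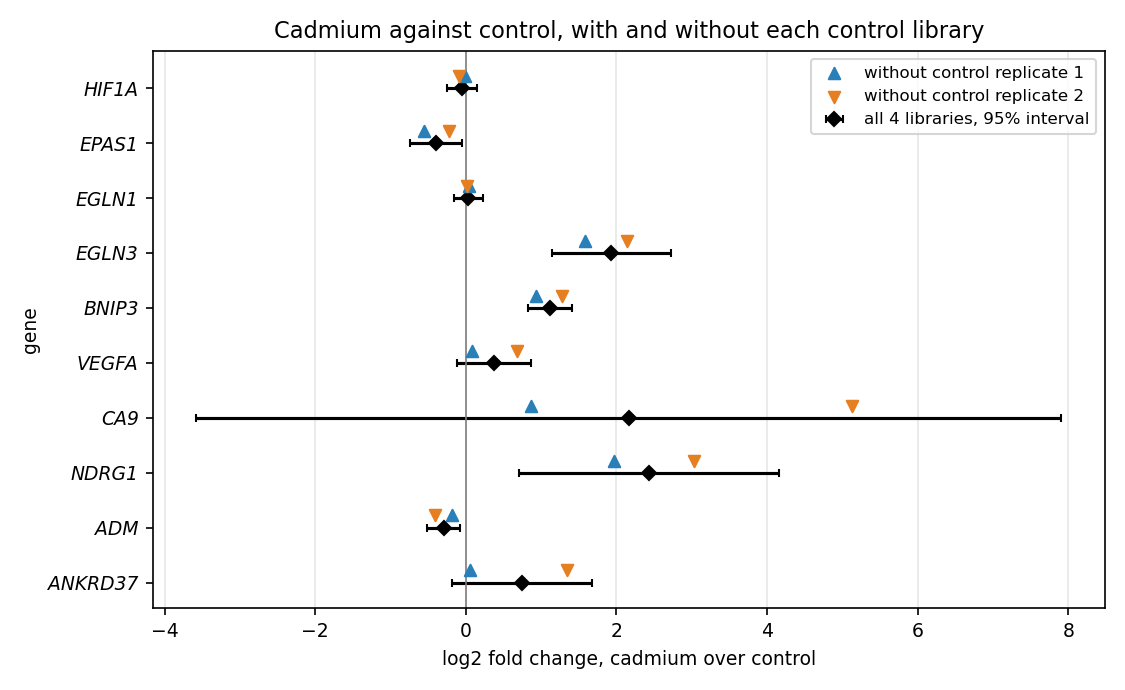
Log2 fold change, cadmium over control, of each gene with its 95% interval over all 4 libraries (black diamonds) and without control replicate 1 (blue) or control replicate 2 (orange). CA9 moves to 0.87 without control replicate 1 and 5.13 without control replicate 2, while HIF1A and EGLN1 stay near 0.

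The number of genes that passed therefore turned on single libraries. Without control replicate 2, 6 of the 10 were called higher and 1 lower, where 13.8% and 12.5% of all tested genes were called. In that fit the control group has no spread of its own, and the difference between controls that is large for CA9, ANKRD37 and NDRG1 does not enter the test. The 6 were EGLN3, BNIP3, VEGFA, CA9, NDRG1 and ANKRD37, and the gene called lower was ADM. Without control replicate 1, 2 were called higher (EGLN3 and BNIP3) and 1 lower (EPAS1), with 7.56% and 7.34% of all genes called. Without cadmium replicate 1 only BNIP3 was called, with 2.71% of all genes called higher and 1.73% lower. Without cadmium replicate 2, EGLN3 and BNIP3 were called higher and 0 lower, with 4.18% and 2.08% of all genes called. The median log2 fold change of the 10 genes was 0.56 over all libraries, 0.98 without control replicate 2 and 0.069 without control replicate 1. With a stricter filter of 5 CPM in 2 libraries, which EGLN3 and ANKRD37 do not pass, it was 0.24.

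Libraries of the same group differed in a way that many of these genes shared. All 10 genes were higher in cadmium replicate 1 than in cadmium replicate 2, as were 49.6% of all tested genes. The 95% counting interval of that ratio included 1 for HIF1A (0.983 to 1.12), EGLN1 (0.954 to 1.08) and ANKRD37 (0.835 to 1.70). In controls 7 of the 10 were higher in replicate 2 than in replicate 1, as were 50.7% of all tested genes, and the 3 exceptions were HIF1A, EGLN1 and ADM. The ratio of control replicate 2 to control replicate 1 was 19.4 for CA9, 2.46 for ANKRD37, 2.09 for NDRG1, 1.52 for VEGFA and 1.49 for EGLN3. It was 1.28 for BNIP3, 1.26 for EPAS1, 0.979 for EGLN1, 0.956 for HIF1A and 0.857 for ADM. The counting intervals of these ratios excluded 1 for CA9, ANKRD37, NDRG1, VEGFA, BNIP3, EPAS1 and ADM. These intervals cover counting error only, and chi-square divided by the number of genes was 11.3 for the pair of controls. The share of all tested genes with such an interval was not computed, so this count is not particular to these genes. Control replicate 2 was also the library with the fewest reads, and the part of depth in these ratios was not tested. The labels give no difference between the 2 control libraries, so what the control level of these targets stands for is not known beyond the label.

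**Figure D3:**
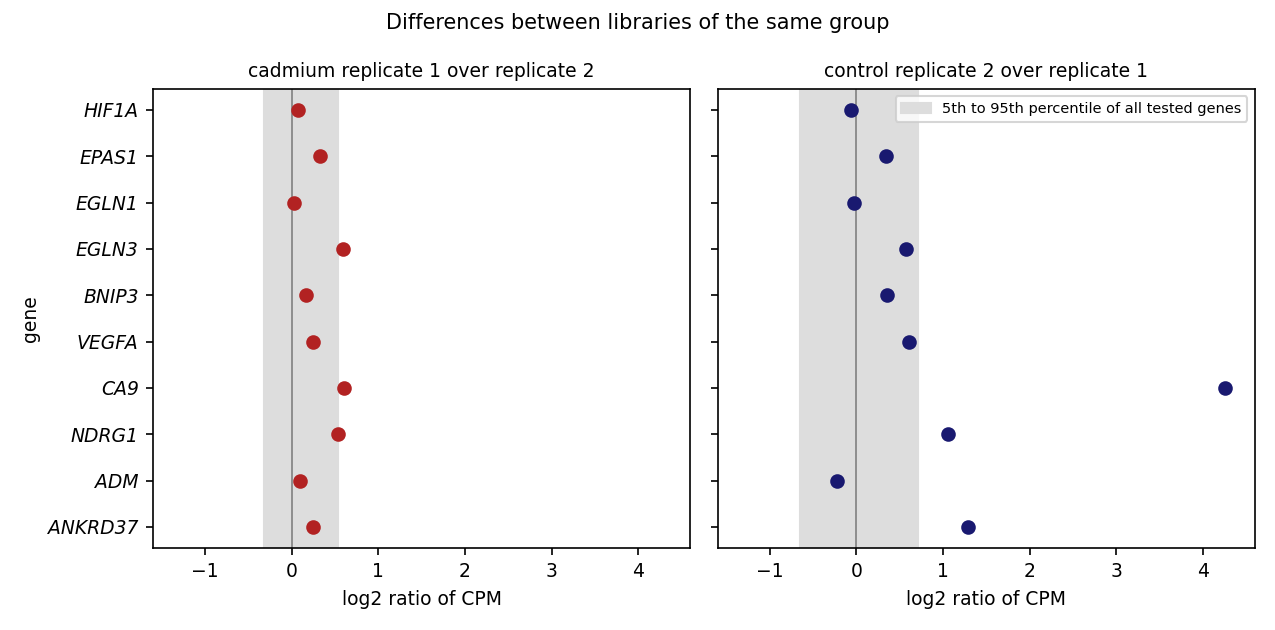
Log2 ratio of CPM between the 2 cadmium libraries (left) and between the 2 control libraries (right) for each gene, with the 5th to 95th percentile of all tested genes in grey. In cadmium libraries all 10 genes lie right of 0 and CA9, EGLN3 and NDRG1 lie just right of the grey range, and in controls CA9, ANKRD37 and NDRG1 lie right of it.

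Other hypoxia targets outside glycolysis numbered 40, of which 38 were tested. Of these 15 rose, 2 fell and 21 did not pass, against 8.85% and 7.66% of all genes called, and their median log2 fold change was 0.50. The list was chosen with earlier results of these data known, so the counts describe it and are not an independent test. The counts changed when single libraries were left out. The median log2 fold change of the list was 0.40 without cadmium replicate 1 and 0.54 without cadmium replicate 2. It was 0.43 without control replicate 1 and 0.60 without control replicate 2. PPFIA4, a liprin gene, had 23.3 and 19.3 CPM in cadmium libraries, against 2.65 and 5.82 CPM in controls, and rose by 2.50 (SE 0.32, adjusted p = 0.00713), and by 1.88 without control replicate 1. MXI1, a MYC antagonist, had 39.7 and 35.4 CPM in cadmium libraries, against 11.8 and 15.4 CPM in controls, and rose by 1.50 (SE 0.15). AK4, a mitochondrial adenylate kinase, had 17.3 and 18.6 CPM in cadmium libraries, against 7.57 and 9.15 CPM in controls, and rose by 1.13 (SE 0.16). The 15 include HMOX1, which is also on the list of cadmium exposure genes and rose by 1.12 (adjusted p = 0.00285).

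The 2 of these targets that fell were TFRC and LOXL2. TFRC, the transferrin receptor gene, had 193 and 244 CPM in cadmium libraries, against 392 and 299 CPM in controls, with a fitted log2 change of -0.67 (SE 0.16, adjusted p = 0.0410). The call on TFRC ended under 9 of 15 alternatives, among them leaving out cadmium replicate 1 (-0.50, adjusted p = 0.127) or control replicate 1 (-0.46, adjusted p = 0.0547). LOXL2, which crosslinks collagen, had 416 and 358 CPM in cadmium libraries, against 569 and 566 CPM in controls, and fell by 0.55.

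STC1, MIR210HG and DDIT4, chosen here after their values were seen, were also higher in control replicate 2 than in control replicate 1, by ratios of 4.01, 3.35 and 2.93, against 19.4 for CA9. STC1, the gene for the hormone stanniocalcin 1, had 17.5 and 11.2 CPM in cadmium libraries, against 1.04 and 4.16 CPM in controls. MIR210HG, the host gene of miR-210, had 26.9 and 17.1 CPM in cadmium libraries, against 3.65 and 12.2 CPM in controls. DDIT4, an inhibitor of mTOR signalling, had 79.7 and 56.3 CPM in cadmium libraries, against 25.1 and 73.6 CPM in controls. None of the 3 passed (adjusted p = 0.0598, 0.210 and 0.663). Over the 38 tested targets, however, 21 were higher in control replicate 2, a share of 55.3% beside 50.7% of all genes. Of the 21 glycolytic hypoxia targets, 17 were higher in control replicate 2, a share of 81.0%.

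All 21 glycolytic hypoxia targets were tested. Of these 11 rose, 0 fell by edgeR, DESeq2 or at an unadjusted p under 0.05, and 10 did not pass, with a median log2 fold change of 0.40, and 16 lay above both controls in both cadmium libraries. Over all tested genes 8.85% were called higher and 31.3% lay above both controls. This list too was chosen with earlier results of these data known. Leaving out cadmium replicate 1 left 5 called higher, where 2.71% of all genes were, and leaving out cadmium replicate 2 left 7, where 4.18% were. PFKFB4, which makes an allosteric activator of glycolysis, had 42.2 and 41.0 CPM in cadmium libraries, against 15.6 and 19.7 CPM in controls, and rose by 1.27 (SE 0.14, adjusted p = 0.00308). Hexokinase gene HK2 had 134 and 140 CPM in cadmium libraries, against 76.2 and 63.8 CPM in controls, and rose by 0.96 (SE 0.10). The enolase gene ENO2 had 308 and 258 CPM in cadmium libraries, against 137 and 165 CPM in controls, and rose by 0.91 (SE 0.12). PDK3, which inhibits pyruvate dehydrogenase, rose by 0.75 (SE 0.14) and did not pass without cadmium replicate 1. It had 23.1 and 20.5 CPM in cadmium libraries, against 12.4 and 13.7 CPM in controls. On log2 RPKM with a pseudocount of 0.5 or 0.1 it did not pass either (limma, adjusted p = 0.343 and 0.358). However, its RPKM values did not follow its counts, with 2.98 and 3.19 RPKM in cadmium libraries against 3.04 and 0.938 RPKM in controls.

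**Figure D4:**
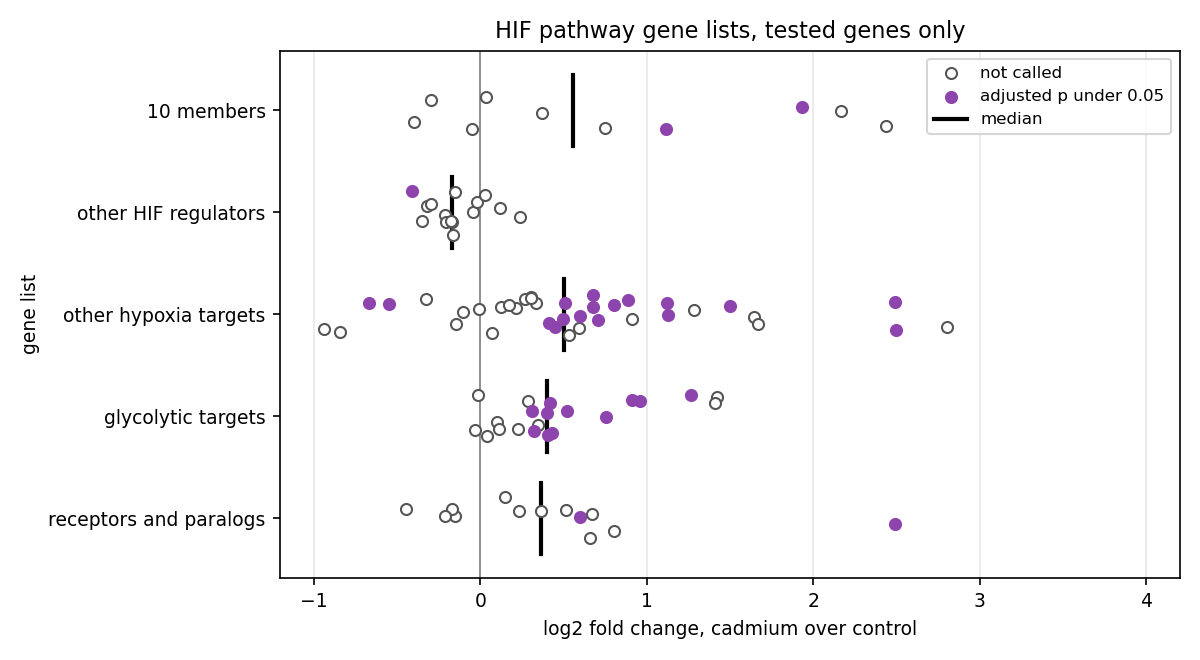
Log2 fold change, cadmium over control, of the tested genes in 5 lists, with filled points for adjusted p under 0.05, open points for genes that did not pass, and a bar at the median. Medians were 0.56 for the 10 members, -0.17 for other HIF regulators, 0.50 for other hypoxia targets, 0.40 for glycolytic targets and 0.37 for receptors and paralogs.

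Receptors and paralogs of these genes numbered 19, of which 13 were tested, and CA12 and BNIP3L, both also among the hypoxia targets, rose while 0 fell by edgeR and DESeq2, and 1 was lower at an unadjusted p under 0.05. Among all tested genes the shares called were 8.85% higher and 7.66% lower. The counts of this list changed when single libraries were left out. The median log2 fold change of the 13 genes was 0.37, and 0.17 without control replicate 1. The VEGF receptor genes FLT1 and KDR were below the filter, with 8 and 6 reads of FLT1 in cadmium libraries against 33 and 0 in controls, and at most 3 reads of KDR in any library. Both NRP1 and NRP2, the neuropilin genes on this list, were tested. NRP1 had 19.8 and 20.8 CPM in cadmium libraries, against 26.2 and 17.9 CPM in controls. NRP2 had 1.73 and 2.28 CPM against 1.84 and 2.85 CPM. CALCRL, which forms the adrenomedullin receptor, and RAMP3 had 0 reads in every library. RAMP1, a receptor-modifying protein gene, had 5.19 and 3.48 CPM in cadmium libraries and 2.04 and 4.04 CPM in controls. For RAMP2 these were 2.25 and 2.21 CPM against 1.77 and 1.19 CPM. None of these genes passed. The ligand genes VEGFA and ADM had 608 to 2526 and 2104 to 7590 reads over the same libraries.

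Per length, the order of the 10 genes by mean RPKM in cadmium libraries was NDRG1 (144 ± 38.6), ADM (136 ± 7.45), BNIP3 (82.6 ± 7.15), VEGFA (19.9 ± 2.72), HIF1A (19.1 ± 0.761), EPAS1 (16.9 ± 2.83), CA9 (13.9 ± 4.12), EGLN1 (11.7 ± 0.226), ANKRD37 (3.17 ± 0.410) and EGLN3 (1.48 ± 0.439, SD, n = 2 each). In control libraries it was ADM (163 ± 17.7), BNIP3 (37.7 ± 6.45), NDRG1 (26.8 ± 13.3), EPAS1 (21.9 ± 3.61), HIF1A (19.3 ± 0.604), VEGFA (15.4 ± 4.26), EGLN1 (11.2 ± 0.175), CA9 (3.95 ± 5.04), ANKRD37 (2.14 ± 1.27) and EGLN3 (0.413 ± 0.115, SD, n = 2 each). Neighbours whose libraries overlapped in the cadmium order were NDRG1 and ADM, and each adjoining pair from VEGFA down to EGLN1. In the control order they were each adjoining pair from BNIP3 down to HIF1A, and CA9 and ANKRD37. NDRG1 stood above ADM and BNIP3 in the cadmium order and below both in the control order.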

How the data were processed

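RNA was measured in 2 cadmium and 2 control libraries of BEAS-2B cells, prepared with a TruSeq RNA kit per the labels' protocols. The submitters' processing notes name STAR 2.4, DESeq2, DESeq and hg19 without roles; counter, annotation release and strand use: not given in the sources used here. Per the file headers, the authors' count and RPKM values are listed for each library and RefSeq gene. The authors' comparison table holds mean RPKM, a log ratio (read as log2 from its values) and the raw and adjusted p-value.

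Counts were fitted with edgeR 4.0.16 in R 4.3.3 (filterByExpr, TMM, group only, robust quasi-likelihood). The adjusted p is Benjamini-Hochberg over 13663 genes, from edgeR unless another tool is named. CPM use TMM factors. SE and 95% intervals come from the F statistic, unadjusted. The fit was tested on simulated counts. Alternatives were other scalings and filters, DESeq2 1.42.0, limma 3.58.1 (voom, and log2 RPKM plus 0.5 or 0.1), a replicate block, thinned counts and leaving out each library. A crossed replicate block was added after the data were seen. Members and lists were chosen with earlier results of these data known. Named list genes are up to 4 passing genes with the largest change plus the largest passing change in the minority direction, or, with none passing, the 2 with the smallest p. LOXL2, HMOX1, STC1, MIR210HG, DDIT4, and the marker and receptor genes were added after their values were seen. Gene positions are the files' hg19, 1-based; promoters are GRCh38.p14, with no conversion.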

Additional observations from a re-analysis of the deposited data

How the results depend on the processing

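Of 148 recomputed fold changes of the 10 genes, 133 kept their direction and their side of the threshold, 13 newly passed, 1 (EGLN3 without cadmium replicate 1) no longer passed and 1 turned: HIF1A was 0.0072 with library size alone. The recomputed values include a crossed pairing of replicates, chosen after seeing the data, under which EPAS1, VEGFA and NDRG1 newly passed. No DESeq2 adjusted p was missing for the 10 genes. Over all genes, called higher and lower numbered 1209 and 1046, and 781 and 567 with log2(RPKM + 0.5), 719 and 554 with log2(RPKM + 0.1), and 682 lower with library size alone. Leaving out 1 library gave 369 to 1977 higher and 235 to 1791 lower. Of the 10 genes, called higher numbered 1 with the stricter filter of 5 CPM in 2 libraries, which drops EGLN3, and 1 to 6 without 1 library. Called lower numbered 1 with no filter and 0 to 1 without 1 library. For other HIF regulators, called lower numbered 2 with no filter or limma-voom, 0 with either RPKM fit and 0 to 4 without 1 library, and called higher 0 to 1 without 1 library. For other hypoxia targets, called lower numbered 1 with library size alone, the stricter filter, either RPKM fit or thinned counts and 2 to 4 without 1 library, and called higher 7 to 22 without 1 library. Glycolytic targets called higher numbered 5 to 13 without 1 library. Receptors and paralogs called higher numbered 1 with the stricter filter, 1 with log2(RPKM + 0.5), 0 with log2(RPKM + 0.1) and 0 to 5 without 1 library, and called lower 0 to 3. Nuclear-retained RNAs called higher numbered 1 to 3 and cadmium exposure genes 5 to 6 without 1 library. HIF1A-AS2 could not be tested without cadmium replicate 1. The causes were not tested. EGLN3, ANKRD37, HIF1A-AS2 and, in controls, CA9 rest on few reads. The interval of the ratio between controls includes 1 for EGLN3 (0.705 to 2.99), but not for CA9 or ANKRD37.

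The groups share replicate numbers, but nothing in the labels pairs them, and same-numbered libraries deviated in opposite directions (correlation over genes -0.19). With the replicate block 1073 genes were called higher and 811 lower, 2 and 0 of the 10 genes, 18 and 1 of the other hypoxia targets, and TFRC did not pass (adjusted p = 0.0960). TFRC also missed the threshold with no filter, thinned counts, either RPKM fit, the stricter filter and library size alone (adjusted p = 0.0501 to 0.104). A crossed pairing, chosen after seeing the data, called 1551 higher and 1471 lower, 4 and 1 of the 10 genes, 2 lower among other HIF regulators and 4 lower among other hypoxia targets.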

Other observations

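The promoter letters were also counted in the other lists. Of 37 windows of 250 bases from 26 of these 40 genes, 22 held ACGTG on at least 1 strand, a share of 59.5%, and of 40 windows from 20 glycolytic targets 17 did, a share of 42.5%. For the other HIF regulators the share was 28.6% of 21 windows, beside 22.4% of windows over genes tested and 18.5% over all windows. GCGTG was found in 70.3% of the windows of other hypoxia targets, 37.5% of those of glycolytic targets and 33.3% of those of other HIF regulators, beside 43.6% over genes tested and 32.2% over all windows. Windows of 1 gene can overlap, so the shares are descriptions and were not tested.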
